A study of Mus musculus with 374 samples.

Results

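Among 81 quantitative PCR assays measured in single cells of the mouse heart at embryonic day 10.5, the assays numbered 27, 53, 56, 57, 85, 86, 87 and 88 were often detected in the same cells. All 8 were found in 54.8% of the 334 cells with at least 10 assays detected and in 48.9% of all 374 cells. These 8 assays of 81 are described here. They were chosen by their joint detection in the cells of this same table, so that joint detection is a description and no test of it was made. A pair of assays had been joined where each was detected at least 60 percentage points more often in cells with the other than in cells without it. By that measure assay 85 lay just inside, with 62.9 points in its closest pair, and assays 39 and 70, which are not members, lay just outside with 56.9 points each. Of the 28 pairs within the set, 19 reached the threshold, and the smallest difference of any pair was 37.8 points.

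The cells came from Nkx2-5Cre/+;ROSA26mTmG/+ embryos and were sorted for green fluorescence. Nkx2-5 encodes a transcription factor of heart progenitors, and cells in which its Cre has acted, with their descendants, lose a red membrane protein and gain a green one. The sorted green cells are thus a lineage and not a cell type. Such a lineage is known to hold several kinds of heart cell, among them the contractile heart muscle cells and the endocardial cells that line the chambers. In single-cell quantitative PCR, 1 sorted cell is lysed in a well, its RNA is copied to cDNA and amplified with all assays pooled, and each assay is then read alone. The threshold cycle (Ct) is the cycle at which the product becomes visible, so a lower Ct means more template.

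The table holds 374 cells, which the labels divide among 9 dissected zones of the heart. Its columns are only numbered, and 0 of 374 names could be tied to a sample's label. Cells were therefore not given to zones, and no zone is compared here. The table gives assay numbers without gene names, so the genes behind the 8 assays are not named and no sequence is shown for them. All cells were treated as 1 sample. The labels name no animal, so there are no replicates and no p-value was computed. The intervals given are exact 95% binomial (Clopper-Pearson) intervals of shares, or order-statistic 95% intervals of medians. For a difference between runs, the exact intervals of the runs were combined by Newcombe's method. They cover only the error of sampling cells.

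A Ct of at most 28 counted as detection, and the 334 cells with at least 10 assays detected were kept. At that edge, 4 cells had 9 assays and were left out, and 2 cells had 10 and were kept. The columns fall into 4 runs of 96 numbers, the number of inputs of the microfluidic arrays used. The labels tie neither arrays nor zones to these runs, so array and zone cannot be told apart in a difference between runs. The runs held 84, 79, 81 and 90 kept cells. Their median number of other assays detected per cell, out of 73, was 33 in runs 1, 2 and 4 and 30 in run 3. Assay 94, which was found in 327 of the 334 cells, is given beside results below, together with the number of other assays detected. Neither measures template apart from expression, and assay 94 is itself an unnamed transcript. Its median Ct in runs 1 to 4 was 14.21, 14.36, 13.97 and 13.76. In 7 kept cells assay 94 was not detected, and they stand apart in the 8 assays, as described below.

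Detection of the 8 assays spanned a narrow range. Assay 27 was the least frequent, in 220 of 334 cells (65.9%, interval 60.5 to 70.9%), and assay 53 followed in 226 cells (67.7%). Assay 57 was detected in 237 cells (71.0%), assay 87 in 241 (72.2%), assays 56 and 86 in 242 each (72.5%) and assay 88 in 243 (72.8%). These 5 shares lay within 2 points of each other, well inside their intervals. Assay 85 was the most frequent, in 272 cells (81.4%, interval 76.8 to 85.5%), and its interval overlapped that of assay 88 (67.6 to 77.5%). All shares come from the same 334 cells, and these intervals ignore that pairing. Their overlap therefore does not decide whether assays 85 and 88 differ in frequency. The median of the 8 shares was 72.3%, against 38.9% for the other 73 assays, of which 14 had a share above that of assay 27.

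Each of the 8 assays was least frequent in run 3 and most frequent in run 2. Among the other 73 assays, 30 were lowest in run 3 and 20 were highest in run 2. The members were chosen for detection in the same cells, so their shares tend to move together between runs. Their common order is therefore not 8 separate readings. Assay 53 had the widest gap. It was present in 64 of 79 cells (81.0%) in run 2 and in 42 of 81 (51.9%) in run 3, and the intervals, 70.6 to 88.97% and 40.5 to 63.1%, do not overlap. For runs 1 and 4 the counts were 61 of 84 (72.6%) and 59 of 90 (65.6%). The intervals of runs 2 and 3 were also apart for assay 56 (81.0% and 55.6%) and assay 57 (82.3% and 54.3%). For assay 88, which had the narrowest gap, the shares were 77.2% in run 2 and 64.2% in run 3, and the intervals overlapped. The gap between the highest and lowest run had a median of 17.5 points over the 8 assays and 22.96 points over the other 73, so the typical gap was no wider in the set.

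**Figure D1:**
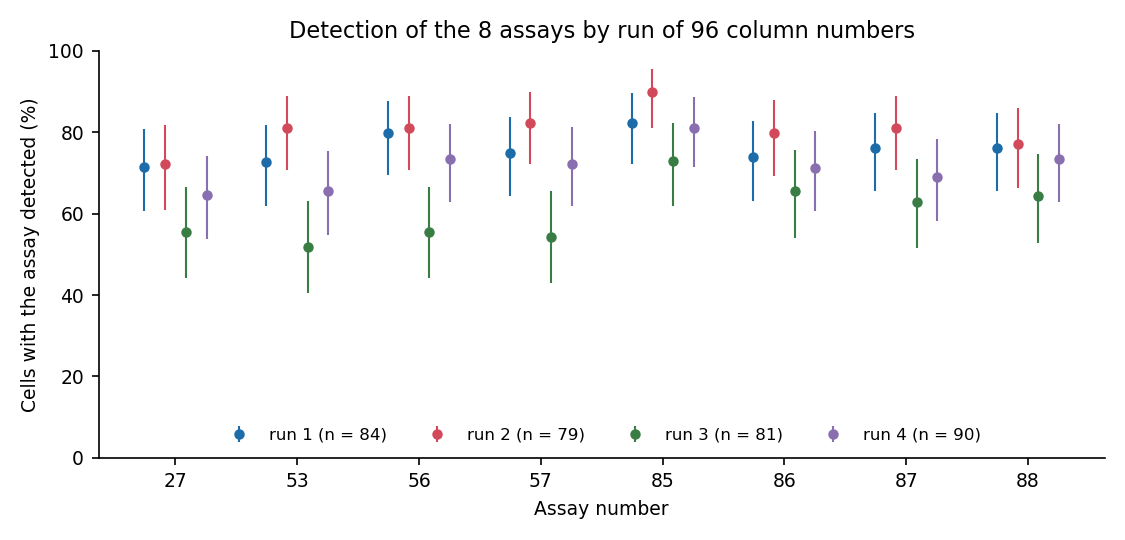
Share of kept cells in which each of the 8 assays was detected (vertical axis, percent), by assay number (horizontal axis) and by run of 96 column numbers (colours), with exact 95% binomial intervals as bars. Run 3 is lowest for every assay, from 51.9% for assay 53 to 72.8% for assay 85, and run 2 is highest.

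Most cells had all of the assays or nearly none. All 8 were detected in 183 of 334 cells (54.8%, interval 49.3 to 60.2%), and 25 cells (7.49%) had 7. At the other end, 33 cells (9.88%, interval 6.90 to 13.6%) had none and 31 cells (9.28%) had 1. Each number from 2 to 6 was found in 9 to 14 cells. Cells with all 8 made up 63.3% of run 2 (50 of 79, interval 51.7 to 73.9%) and 59.5% of run 1 (50 of 84, interval 48.3 to 70.1%). They made up 54.4% of run 4 (49 of 90, interval 43.6 to 64.98%) and 41.98% of run 3 (34 of 81, interval 31.1 to 53.5%). Neighbours in this order have overlapping intervals, as do runs 2 and 3. The difference between runs 2 and 3 was 21.3 points, with a combined interval of 4.99 to 36.5 points. That interval does not include equal shares. Runs 2 and 3 were picked as the highest and lowest, and the interval makes no allowance for that choice. Run 3 also held 18 of the 33 cells with none of the 8, which is 22.2% of its cells (interval 13.7 to 32.8%), against 5.95%, 5.06% and 6.67% in runs 1, 2 and 4. The interval of run 3 lies above that of run 1 (1.96 to 13.3%) and that of run 2 (1.40 to 12.5%), and overlaps slightly with that of run 4 (2.49 to 13.9%).

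**Figure D2:**
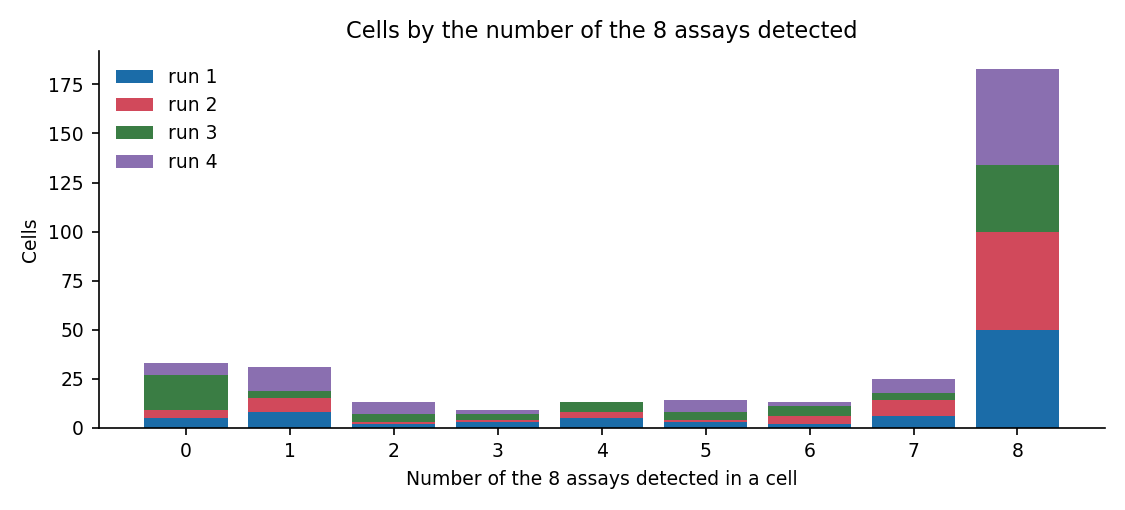
Number of kept cells (vertical axis) by how many of the 8 assays were detected in the cell (horizontal axis), stacked by run of 96 column numbers. The bar at 8 holds 183 cells and the bar at 0 holds 33 cells, of which 18 are from run 3.

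In cells that missed a single assay, the missing one was most often assay 27 or assay 57, each in 9 of 25 cells. Assays 85 and 88 were missing in 0 of these 25 cells. Cells with 7 of the 8 had a median of 33 other assays detected, against 34 in cells with all 8, and a median Ct of assay 94 of 13.65 against 13.54.

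Cells with only 1 to 3 of the assays showed another order. There were 53 such cells, with a median of 29 other assays and assay 94 at a median Ct of 15.34. Assay 85 was detected in 31 of them, assay 57 in 19, assay 56 in 16 and assay 86 in 8, and assays 87 and 88 in 5 each. Assays 27 and 53 were detected in 0 of the 53 cells. Where an assay was detected, it came late. Assay 85 had a median Ct of 21.48 (quartiles 20.57 and 22.29) in these cells and of 14.81 (quartiles 14.27 and 15.47) in cells with all 8, a difference of 6.67 cycles. For assay 56 the medians were 21.22 and 16.88, and for assay 57 they were 21.84 and 17.78. Assay 94 had medians of 15.34 and 13.54 in the same groups of cells, a smaller distance. Of the 33 cells with none of the 8 assays, 23 had most of the assays 63, 89 and 90 and 11 had most of the assays 64, 65 and 67. Of the 53 cells with 1 to 3, the counts were 13 and 31, and of the 40 cells with 4 to 6 they were 1 and 2. Of the 25 cells with 7 they were 2 and 3, and of the 183 cells with all 8 they were 1 and 7. A cell can count for both trios. Both trios were chosen with earlier results of these same cells known, so the counts are a description.

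Cells with 4 to 6 of the assays had few other assays detected. Of 40 such cells, 6 lacked assay 94 and are treated below. The other 34 had a median of 10.5 other assays detected, against 34 in cells with all 8, and assay 94 came at a median Ct of 16.16. The 8 assays count toward the minimum of 10, so such cells could be kept with fewer than 10 other assays. Over the 40 cells the lower quartile of other assays was 9. With the minimum set on the other assays alone, 320 cells were kept. The low number of other assays is thus partly set by the filter, and the filter's part in the split below was not tested. In the 34 cells the set fell into a frequent and a less frequent part. Assay 85 was present in 33 of the 34 (97.1%, interval 84.7 to 99.9%), assay 87 in 30 (88.2%), assay 88 in 29 (85.3%) and assay 86 in 27 (79.4%, interval 62.1 to 91.3%). Assay 27 was detected in 15 (44.1%, interval 27.2 to 62.1%), assays 53 and 56 in 14 each (41.2%) and assay 57 in 13 (38.2%, interval 22.2 to 56.4%). The intervals of assays 86 and 27 meet at 62.1%, and those of assays 85, 87 and 88 lie above those of all 4 less frequent assays. In these cells every assay also came later than in the 182 cells with all 8 and assay 94, by between 2.82 cycles for assay 27 and 4.87 cycles for assay 86. In cells with all 8, the medians of assays 85 to 88 lay between 14.81 and 15.92 cycles and those of the other members between 16.88 and 18.08. A Ct also depends on how well an assay amplifies, so these medians do not rank the transcripts by level. The 4 assays found more often in these cells were those with the earlier medians in cells with all 8, and the part of low template in the split was not tested.

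The next values are Ct values in the 183 cells with all 8 assays, where detection, which chose the members, is the same for all. The spread between cells was widest for assay 57, whose Ct had quartiles of 16.13 and 19.35 cycles, a distance of 3.22, and a range of 9.93 to 26.07. Assay 87 followed with a quartile distance of 2.69 (median 15.19, range 10.78 to 22.36) and assay 53 with 2.53 (median 17.19, range 10.58 to 24.51). The distances were 1.64 for assay 56, 1.63 for assay 27, 1.25 for assay 86 and 1.20 for assay 85. Assay 88 was the most even, with quartiles of 15.32 and 16.44 cycles, a distance of 1.11. Among cells that all contained the set, assays 57, 87 and 53 thus varied more between cells than the other members did.

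Assay 87 differed most between runs. Its median Ct in these cells was 13.17 in run 2 (interval 12.62 to 13.93), 14.95 in run 3 (interval 14.41 to 15.59), 15.20 in run 1 (interval 14.65 to 15.74) and 16.01 in run 4 (interval 15.70 to 16.56). The interval of run 2 lies below the other 3, and that of run 4 touches only that of run 1. A Ct under 14 was given by 34 of 50 cells in run 2, 12 of 50 in run 1, 6 of 34 in run 3 and 2 of 49 in run 4. The mark of 14 was chosen after the values were seen. Assay 94 does not show this order, with medians of 13.91, 13.84, 12.94 and 13.16 in runs 1 to 4. Taken as a difference from the median Ct of the other assays in the same cell, assay 87 stood at -7.17 cycles in run 2 (interval -7.83 to -6.59) and at -5.49, -4.79 and -4.09 cycles in runs 1, 3 and 4. Run 2 was earliest on both scales, and the differences of its raw median from runs 1, 3 and 4 were -2.03, -1.79 and -2.84 cycles.

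Assays 57 and 53 were also earliest in run 2. For assay 57 the medians were 16.13 in run 2 (interval 15.30 to 18.01), 17.09 in run 4 (interval 16.71 to 18.17), 18.01 in run 1 (interval 17.69 to 19.22) and 18.42 in run 3 (interval 17.58 to 19.22), and the interval of run 2 overlapped each of the others. Its quartile distance within run 2 was 4.66 cycles, the widest of any assay of the set in any run. Assay 53 had medians of 16.11 in run 2 (interval 15.54 to 16.55) and 17.64, 17.50 and 17.22 in runs 1, 3 and 4, and the interval of run 2 lay below the lowest bound of the others, 16.79. The raw medians of the other members were earliest in run 3. Assays 85, 88 and 27 had medians of 14.13, 15.32 and 17.21 there, at 0.94, 1.03 and 1.42 cycles from their latest run, and assays 56 and 86 had 16.28 and 15.38, at 0.90 and 0.78 cycles. Run 2 was later than run 3 by only 0.08 cycles for assay 56 and 0.13 for assay 86. Assay 94 was earliest in run 3 too. Relative to the other assays of the cell, the distance between runs shrank to 0.26 cycles for assay 85, 0.47 for assay 88 and 0.25 for assay 27, stood at 0.90 for assay 56 and 0.91 for assay 86, and was 3.09 for assay 87, 2.73 for assay 57 and 2.01 for assay 53. On this relative scale run 2 was earliest for assays 56 and 86 as well as for assays 53, 57 and 87, run 3 for assay 27, run 1 for assay 85 and run 4 for assay 88.

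**Figure D3:**
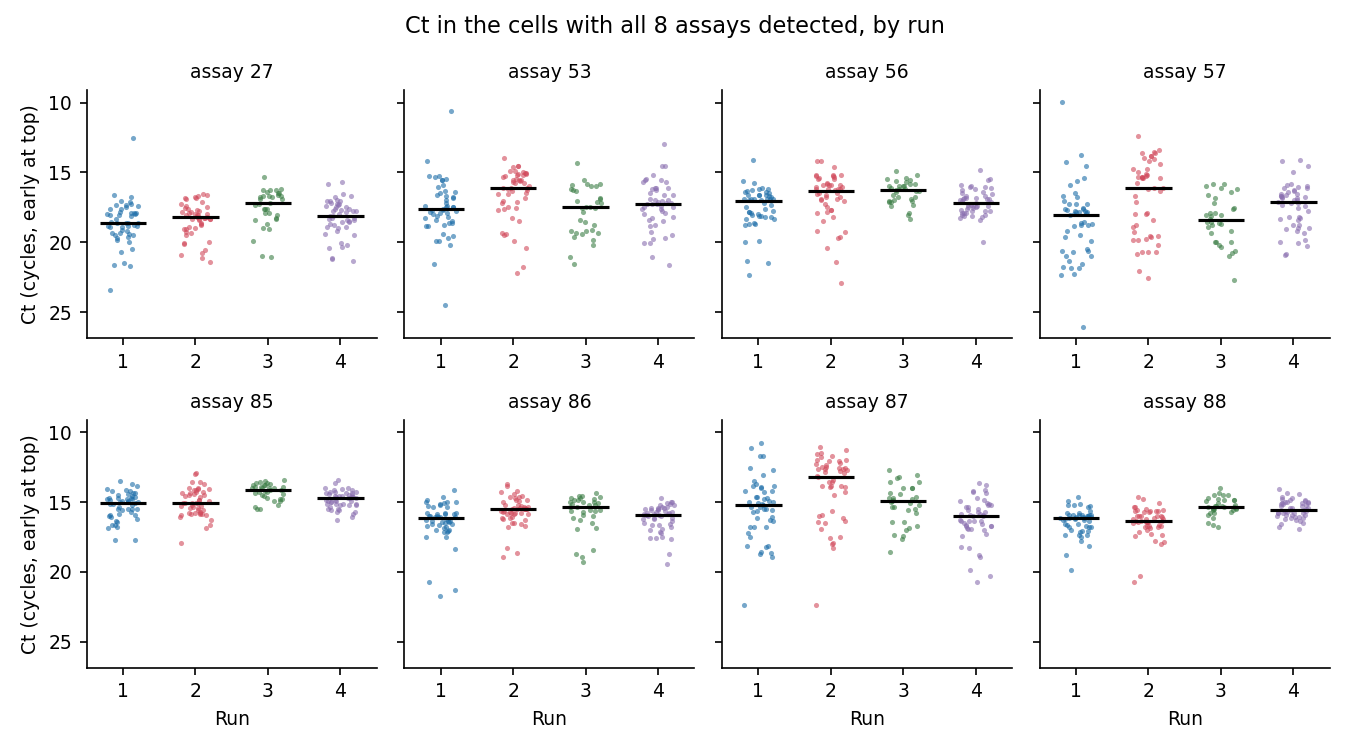
Ct in cycles (vertical axis, turned so that early values are at the top) in the 183 cells with all 8 assays detected, for each assay (panels) and run (horizontal axis). Each point is a cell and each black line the median of the run. Assay 87 is earliest in run 2, with a median of 13.17 cycles, while the medians of assays 85 and 88 span 0.94 and 1.03 cycles over the runs.

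The Ct values of the 8 assays rose and fell together across cells to different degrees. Over the 183 cells, Spearman's rho for the 28 pairs had a median of 0.38, from 0.12 for assays 27 and 53 to 0.68 for assays 85 and 88. Assays 56 and 85 followed with 0.65. These are correlations across cells of 1 sample, and values of a pair share the well, its template and its run. After the median Ct of the other assays of the cell was subtracted, the median was again 0.38, with 0.63 for assays 85 and 88 and 0.14 for assays 27 and 53. The same value was subtracted from both assays of a pair, which can itself raise rho. The unchanged median therefore does not measure the part of shared template, which was not tested.

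Run 2 differed from the other runs in how closely the assays moved together. In its 50 cells the median rho of the 28 pairs was 0.69, against 0.32 in run 1 (50 cells), 0.33 in run 3 (34 cells) and 0.24 in run 4 (49 cells). In run 2, 20 of the 28 pairs had a rho above 0.6, a mark chosen after the values were seen, against 2, 2 and 0 in runs 1, 3 and 4. Assays 57 and 87 had the highest rho of run 2, 0.87, and had 0.32, 0.39 and 0.34 in runs 1, 3 and 4. For assays 53 and 87 the rho was 0.68 in run 2, 0.26 in run 1 and below 0 in runs 3 (-0.14) and 4 (-0.13). Assays 85 and 88 were alike in all runs, with 0.80, 0.66, 0.63 and 0.53 in runs 1 to 4.

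The 7 kept cells in which assay 94 was not detected broke the set into the same 2 parts as the cells with 4 to 6 assays, but the other way round. Assays 27, 53, 56 and 57 were detected in all 7 of these cells. Assays 85, 86 and 87 were detected in 1 of 7, the same cell, and assay 88 in 2 of 7. In the 327 cells with assay 94, the shares were 82.9% for assay 85, 73.7% for assays 86 and 88 and 73.4% for assay 87. The 7 cells had between 13 and 57 other assays detected, with a median of 30 against 33 in the rest, and the part of template in their missing assays was not tested. They lay in run 1 (4 cells), run 2 (2 cells) and run 4 (1 cell).

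Assay 53 came at Ct values of 12.24, 14.04, 11.68 and 10.58 in the 4 cells of run 1, 10.67 and 12.73 in those of run 2, and 11.12 in that of run 4. None of the 219 cells with both assays had assay 53 earlier than the median of these values, 11.68, and their own median was 17.26. Assay 57 came at 13.62, 16.16, 10.997 and 9.93 in the cells of run 1, 13.46 and 13.53 in those of run 2 and 10.61 in that of run 4. Of the 230 cells with assays 57 and 94, 3 were earlier than the median of these values, 13.46, and the median was 18.17. Assays 53 and 57 were thus at the early end of their own ranges in cells without assay 94. Assays 27 and 56 were not so placed as a group: their values ran from 11.51 to 27.43 and from 12.96 to 25.80, with medians of 17.85 and 18.88 against 18.26 and 17.06 in the rest. The early values were not particular to the set, since 18 of the 35 assays detected in at least 4 of the 7 cells had a median more than 2 cycles earlier there than in the rest. Another 2 cells, both in run 1, had assay 94 detected but late, at 27.37 and 25.90. The first had assay 53 at 12.18 and assay 57 at 11.44, with assay 87 not detected and assay 85 at 18.06. The second had assay 53 at 15.09 and assay 57 at 18.26, and assays 86 and 87 at 25.87 and 25.90.

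**Figure D4:**
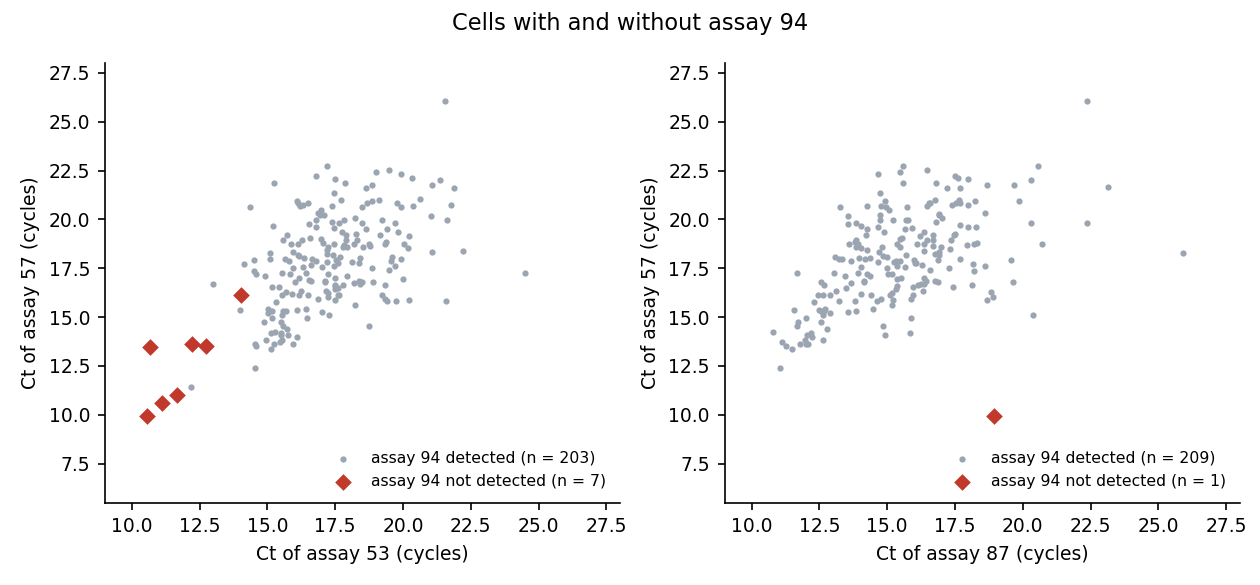
Ct of assay 57 (vertical axis, cycles) against Ct of assay 53 (left panel) and of assay 87 (right panel), 1 point per cell in which both plotted assays were detected, with cells in which assay 94 was not detected drawn as red diamonds. On the left the 7 diamonds have assay 53 between 10.58 and 14.04 cycles, and on the right 1 diamond remains because assay 87 was not detected in the other cells without assay 94.

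Without these 7 cells, all 8 assays were detected in 55.7% of the 327 cells and the median share of the 8 was 72.6%. One of the 7 had all 8 assays and is in the Ct comparisons above. It gave the earliest values of assays 27, 53, 56 and 57 there, and without it the 28 pairs had a median rho of 0.39, from 0.10 to 0.68.

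Among the 73 other assays, those whose detection was most like the set were assays 70, 50 and 39. Likeness was measured by the phi coefficient, the correlation of 2 yes-or-no readings across cells, between an assay and the detection of more than 50% of the set, which 235 cells had and 99 had not. Assay 70 had a phi of 0.64 and was detected in 171 of 235 cells with the set (72.8%) and 3 of 99 without it (3.03%). Within the runs its phi went from 0.39 in run 2 to 0.84 in run 4. Assay 50 had 0.58, with 233 of 235 cells and 55 of 99, and assay 39 had 0.56, with 175 of 235 and 13 of 99. The assays most unlike the set were 65 (-0.53, 5 of 235 cells against 42 of 99), 90 (-0.52, 1 of 235 against 36 of 99) and 89 (-0.52, 5 of 235 against 41 of 99). The signs of these 6 coefficients were the same in each run. The set was chosen by joint detection in these same cells, and the 6 assays were picked by their phi over all runs together. The shared signs are therefore a description and not separate support. The median phi of all 73 assays was 0.12, with 47 above 0. Cells with all 8 assays had a median of 34 other assays detected and cells with none had 25, and the part of this difference in the coefficients was not tested.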

How the data were processed

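The authors deposited 1 table of Ct values, per its values and the labels' protocols, for 81 TaqMan assays in 374 single cells, read on microfluidic arrays after pre-amplification. Reactions without a Ct carry a code and were taken as not detected. How thresholds were set and wells were filtered is not given in the sources used here. No normalization was applied to the deposited Ct values. Columns were to be given to zones by matching names only, and 0 matched, so the planned zone values, and gene names and marker lists, could not be used. Order was not used in place of names. The members, the runs and the lists were chosen with earlier results of these data known. By rule, named assays are the 8 members and the 3 other assays with the highest and the 3 with the lowest phi. Assays 94, 63, 64 and 67 fall outside it and were named after their values were seen. Python 3.11.15 was used with scipy 1.17.1, pandas 2.3.3 and numpy 2.4.6, and matplotlib 3.10.9 for plots. The phi ranking and the intervals of shares and medians were tested on simulated data of independent draws. These draws had no runs and no shared template, so the simulation does not cover those features of the cells. Relative Ct is the Ct minus the median Ct of the other assays detected in the cell. Doublets were not called. Alternatives were other detection limits, cell filters, relative Ct, leaving out each run and, chosen after the values were seen, leaving out the cells without assay 94 and, for the runs, a filter on the other assays.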

Additional observations from a re-analysis of the deposited data

Results flagged for a closer look

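Some reactions of the set lay outside the cells and the Ct limit used above. In the 40 cells with fewer than 10 assays detected, which had a median of 5, assays 85 and 87 were each detected in 12 cells (30%, interval 16.6 to 46.5%), assay 86 in 10 (25%, interval 12.7 to 41.2%), assay 88 in 7 (17.5%, interval 7.34 to 32.8%) and assay 53 in 4 (10%, interval 2.79 to 23.7%). A count of 0 would allow 7.5% by the limit of 3 counts. Every count of 4 or more passes that mark by construction, and the intervals of assays 53 and 88 include it. Assay 57 was detected in 3 of these cells, assay 56 in 1 and assay 27 in 0. The median Ct in these cells was 22.02 for assay 85 and 20.26 for assay 87. Of the 40 cells, 14 had none of the 8 assays and the highest number in a cell was 4. In kept cells, 18 of 2672 reactions of the set had a Ct above 28 (0.674%), of which assay 87 gave 4 in 334 cells (1.2%, interval 0.327 to 3.04%) and assays 85, 86 and 88 gave 3 each. The interval of assay 87 includes the 0.898% that a count of 0 would allow, so it is not set apart from them.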

How the results depend on the processing

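Without the minimum of 10 assays, which adds 40 cells, the median share of the 8 assays fell from 72.3% to 65.9% and the share of cells with all 8 from 54.8% to 48.9%, both outside the 95% intervals of the main values. The gap between the highest and lowest run in the share of cells with all 8 was 21.3 points (run 2 against run 3). Its combined interval was 4.99 to 36.5 points. With no cell filter the gap was smallest, at 14.4 points, and run 1 was highest. Without the cells that lack assay 94 the gap was largest, at 22.96 points. Run 3 stayed lowest in each setting tried. The median share of the 8 assays lay between 69.6% and 75.3% when each run was left out. Of 88 single-assay shares under the alternatives, 78 stayed within the interval of the main value, as did 69 of 72 median Ct values. The number of cells limits the precision, and shares of assays that lie within each other's intervals were not told apart. These intervals ignore that all assays were read in the same cells. Each column holds all assays, so their shares could be compared cell by cell, but this was not done. No paired analysis was possible because no column could be given to a sample, so the cell numbers in the titles carry no values. That limit concerns only the pairing of samples by those numbers and not the pairing of assays within a cell.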
